A study of Mus musculus with 10 samples.

Results

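The receptors for pituitary hormones and for the hypothalamic peptide CRH were followed in whole testis of mice at postnatal day 10. The genes were chosen by name, as the rows of the deposited count table labelled Fshr, Lhcgr, Tshr, Prlr, Ghr, Mc2r, Mc5r and Crhr1, so 8 of 30719 genes; 7 of the 18559 genes that passed the filter on low counts belong to them. RNA sequencing compared 5 wild-type (WT) mice with 5 FXR-/- mice, which lack FXRα, the bile acid receptor encoded by Nr1h4. Both genotypes were on a mixed 129sv and C57Bl background, each library came from an individual mouse, and all 10 libraries were sequenced on 1 flowcell. The labels give no promoter, Cre or cell type limit for the deletion, and the tissue is the whole organ, so fewer cells of a type and less RNA per cell cannot be told apart. The comparison asked which of these receptor transcripts differ between testes with and without FXRα.

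The pituitary drives the testis mainly through 2 glycoprotein hormone receptors. FSH acts on Sertoli cells, the nurse cells of the seminiferous tubule, through the receptor encoded by Fshr, and LH acts on Leydig cells, the androgen-producing cells of the interstitium, through that encoded by Lhcgr. Both, like the thyrotropin receptor Tshr, the ACTH receptor Mc2r, the melanocortin receptor Mc5r and the CRH receptor Crhr1, couple to G proteins and raise cAMP, whereas the prolactin receptor Prlr and the growth hormone receptor Ghr are cytokine receptors that signal through JAK2 and STAT5. Several of them are also known from other tissues: Tshr from thyroid and fat, Ghr from liver and fat, and Mc2r from adrenal cortex and fat.

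The sequence upstream of 3 receptors is shown because each stands for one way the group behaved: Fshr for a receptor that was lower in every FXR-/- library, Lhcgr for one with overlapping genotypes, and Ghr for one that rose. The windows are the 250 bases before the RefSeq start on GRCm38.p6, read 5′ to 3′ on the gene's strand, and capitals mark a match to one of the motifs searched. Fshr lies at chr17:89200676-89200925 on the minus strand, Lhcgr at chr17:88792015-88792264 on the minus strand, and the second Ghr start at chr15:3581843-3582092 on the minus strand.
Fshr: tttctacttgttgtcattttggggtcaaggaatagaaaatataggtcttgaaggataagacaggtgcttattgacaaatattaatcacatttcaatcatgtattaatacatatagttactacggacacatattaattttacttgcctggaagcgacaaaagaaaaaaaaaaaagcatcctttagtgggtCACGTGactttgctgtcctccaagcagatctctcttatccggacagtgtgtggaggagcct
Lhcgr: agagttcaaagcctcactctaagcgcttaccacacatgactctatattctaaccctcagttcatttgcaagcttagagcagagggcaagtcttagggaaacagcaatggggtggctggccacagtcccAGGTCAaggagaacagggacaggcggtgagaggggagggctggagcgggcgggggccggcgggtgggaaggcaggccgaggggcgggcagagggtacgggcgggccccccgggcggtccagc
Ghr: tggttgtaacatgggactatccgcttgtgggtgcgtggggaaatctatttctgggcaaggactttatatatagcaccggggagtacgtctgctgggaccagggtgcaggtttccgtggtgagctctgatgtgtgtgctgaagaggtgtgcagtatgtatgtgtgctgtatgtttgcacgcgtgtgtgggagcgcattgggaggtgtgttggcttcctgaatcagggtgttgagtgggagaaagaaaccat
The Fshr window held the E box CACGTG, which begins 61 bases before the start and occurs in 6.02% of all 32851 windows. The Lhcgr window held the nuclear receptor core element AGGTCA, 122 bases before the start, which occurs in 14% of windows. None of the motifs searched matched in the Ghr window. Motifs were searched on both strands in windows of 5 of the 8 receptors: besides the E box and the core element these were the SF-1 extended element CAAGGTCA (1.33% of all windows), TGACGT of the cAMP response element (6.47%), the GATA core AGATAA (9.99%), the STAT5 core TTCNNNGAA (7.02%) and an inverted repeat of AGGTCA spaced by 1 base (0.00609%). The extended element contains the core element, so their matches can overlap. The second of 3 Prlr windows held TGACGT and a STAT5 core, and the other Prlr windows, both Ghr windows and the Crhr1 window held no match. A match is a string of letters and no evidence that a factor binds there.

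The libraries held 32330029 to 39655170 counts. Nr1h4 was measured at 0.499 ± 0.160 CPM (counts scaled to a common library total with TMM factors) in WT and at 0.276 ± 0.0390 in FXR-/- (SD, n = 5 each), with 13 to 26 counts per WT library and 8 to 13 per FXR-/- library. It was lower in FXR-/- by edgeR (log2 fold change -0.84, SE 0.23, adjusted p = 0.0347). The deleted part of the gene is not given in the sources used here, so this checks the labels only in part. Defining markers of Sertoli, Leydig and germ cells were present in every library. Summed over the list, Sertoli markers reached 3816 to 6381 CPM and germ cell markers 1166 to 2215 CPM.

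Per kilobase of exon, Fshr was the most abundant of the receptors in WT testis (11.3 ± 2.66 CPM per kb, SD, n = 5), and its range did not overlap the next. Prlr (2.76 ± 0.294) and Ghr (2.75 ± 0.510) followed with overlapping ranges, then Lhcgr (1.25 ± 0.273), whose range lay apart on both sides. Crhr1 (0.344 ± 0.141), Mc2r (0.165 ± 0.0498), Tshr (0.0483 ± 0.0447) and Mc5r (0.0139 ± 0.00347 CPM per kb) came last, each overlapping the next. The order at the top depends on the length used. Per kilobase of coding sequence Prlr stood first (23.2 CPM per kb), ahead of Fshr (12.9) and Ghr (12.8), because the exons of Prlr sum to 15339 bases with their untranslated parts and those of Fshr to 2360. In FXR-/- testis the exon-based order changed in the middle and at the bottom: Ghr (4.22 CPM per kb) stood above Prlr (2.81), and Mc2r (0.395) and Tshr (0.390) stood above Crhr1 (0.301), all with ranges that overlap the neighbour.

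Across the receptors, 3 of the 7 tested were called changed by edgeR, Tshr, Ghr and Mc2r, and all 3 rose in FXR-/-. Of all tested genes 13.9% were called, 6.17% as higher and 7.71% as lower. None of the 7 was called lower. The CPM values of the genotypes did not overlap for Fshr (lower in FXR-/-), Tshr and Mc2r (higher), against 11.6% of all tested genes without overlap. Tshr and Mc2r passed the filter largely through the FXR-/- libraries, since 1 and 3 of the 5 WT libraries reached 10 counts against 5 of 5 FXR-/- libraries. A rise was therefore easier to see in these 2 than a fall.

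**Figure D1:**
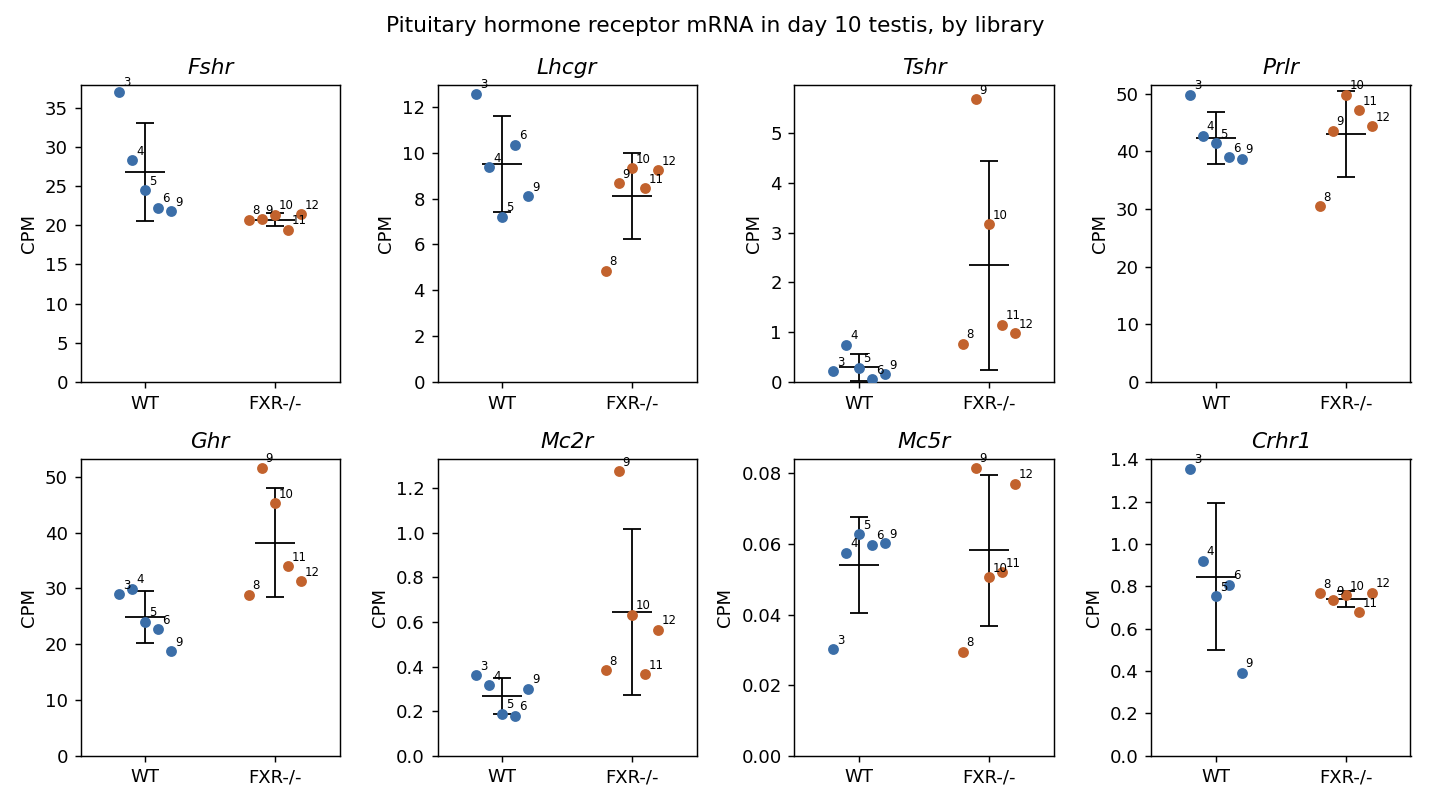
CPM of each receptor (vertical axis, linear, from 0) in the 5 WT libraries (blue) and the 5 FXR-/- libraries (orange), numbered as in the labels; black bars give the mean and SD. The FXR-/- points of Fshr lie at 19.4 to 21.4 CPM, below every WT point, and Tshr and Mc2r lie wholly above WT.

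**Figure D2:**
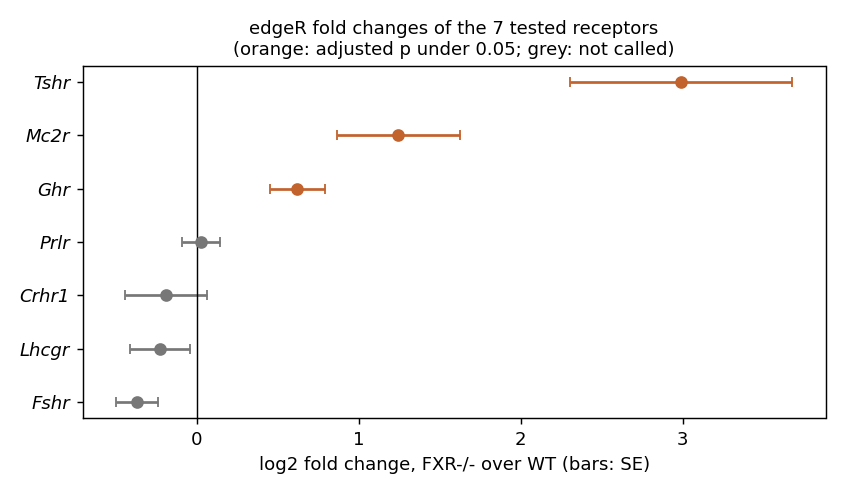
Log2 fold change, FXR-/- over WT, with its SE for the 7 tested receptors. The called receptors (orange) are Tshr at 2.99, Mc2r at 1.25 and Ghr at 0.62; Fshr lies at -0.37 and the rest between -0.23 and 0.03.

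Fshr, the FSH receptor of Sertoli cells, measured 37.0, 28.3, 24.5, 22.2 and 21.8 CPM in WT libraries 3, 4, 5, 6 and 9. In FXR-/- libraries 8 to 12 it measured 20.7, 20.7, 21.3, 19.4 and 21.4 CPM. Every FXR-/- library was below every WT library, but the gap was small (21.8 against 21.4 CPM) and the WT libraries spread far more than the FXR-/- libraries. The means were 26.8 ± 6.28 and 20.7 ± 0.795 CPM (SD, n = 5 each), with a log2 fold change of -0.37 (SE 0.13). This difference was not called by edgeR (adjusted p = 0.0726), and DESeq2 called it (log2 fold change -0.38, adjusted p = 0.0335). An exact two-sided permutation test over mice, of the difference of -0.34 in mean log2 CPM, gave p = 0.00794, the smallest that 5 mice against 5 allow. Much of the WT excess came from 1 library: without WT 3 the edgeR log2 fold change was -0.23 (adjusted p = 0.0821).

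Sertoli cell markers fell in the same libraries, with 10 of 15 lower and 1 higher, against 7.71% lower and 6.17% higher over all tested genes. Their summed level was 5459 to 6381 CPM in WT against 3816 to 5292 CPM in FXR-/-. The count of lower markers was 6 without FXR-/- 11 and 7 without WT 4 or FXR-/- 12, and 8 to 11 without any other single library. Among them were the anti-Müllerian hormone receptor Amhr2 (1.42-fold lower, adjusted p = 0.00300) and the hedgehog ligand Dhh (1.42-fold lower, adjusted p = 0.00418), both by edgeR. Set against the Sertoli marker mean of its own library, Fshr differed by -0.09 log2 units between genotypes, less than the spread between libraries (exact permutation p = 0.556). This value moved with the summary used: it was -0.24 against the median of the marker list (adjusted exact permutation p = 0.155), -0.16 without WT 9 and 0.01 without WT 3, with no call in any of them. The part of Sertoli RNA content in the lower Fshr was not tested.

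Lhcgr, the LH receptor of Leydig cells, lies beside Fshr on chromosome 17, 192961 bases away, with 0 other genes of the table between them. It measured 12.6, 9.38, 7.21, 10.4 and 8.10 CPM in WT and 4.86, 8.67, 9.34, 8.46 and 9.25 CPM in FXR-/- libraries, in the same library order as above. The genotypes overlapped, with FXR-/- 8 as the lowest library and WT 3 as the highest. The means of 9.53 ± 2.09 and 8.12 ± 1.86 CPM did not differ beyond their spread (log2 fold change -0.23, SE 0.19, edgeR adjusted p = 0.443). The log2 fold change was -0.09 without FXR-/- 8 and -0.11 without WT 3, and was not called in either. The Leydig marker mean was 5.36 ± 0.0916 log2 CPM in WT and 5.32 ± 0.336 in FXR-/-, and Lhcgr minus that mean differed by -0.21 (exact permutation p = 0.238).

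Tshr, the thyrotropin receptor, was the receptor with the largest fold change. It had 7, 26, 9, 2 and 5 counts in the WT libraries and 26, 209, 125, 44 and 38 in FXR-/- libraries 8 to 12. In CPM these were 0.211, 0.748, 0.282, 0.0598 and 0.151 in WT and 0.766, 5.68, 3.16, 1.15 and 0.976 in FXR-/-. The FXR-/- libraries were all higher, although FXR-/- 8 exceeded WT 4 by only 0.766 against 0.748 CPM, and libraries 9 and 10 carried most of the excess. The means were 0.290 ± 0.269 and 2.35 ± 2.098 CPM (SD, n = 5 each; log2 fold change 2.99, SE 0.69, edgeR adjusted p = 0.0151), and the exact permutation p over mice was 0.00794, again the smallest possible. The edgeR call held with each of the 10 libraries left out in turn (adjusted p at most 0.0384), and was lost without FXR-/- 9 and 10 together (log2 fold change 1.70, adjusted p = 0.0513). When WT 4, the highest WT library, was left out as well, Tshr was called again (log2 fold change 2.44, edgeR adjusted p = 0.00689).

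Prlr, the prolactin receptor, known in Leydig cells, was the receptor with the most counts. It measured 49.8, 42.7, 41.4, 39.0 and 38.8 CPM in WT and 30.5, 43.6, 49.9, 47.1 and 44.4 CPM in FXR-/-. The genotypes overlapped throughout, with FXR-/- 8 alone below all WT libraries. The means were 42.3 ± 4.51 and 43.1 ± 7.45 CPM, and the difference stayed within their spread (log2 fold change 0.03, SE 0.12, edgeR adjusted p = 0.907). Prlr minus the Leydig marker mean differed by 0.05 log2 units (exact permutation p = 0.556). Its exons share 203 bases with those of the gene Gm21973 on the same strand, so reads there may have been split between them.

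Ghr, the growth hormone receptor, measured 28.9, 30.0, 24.01, 22.7 and 18.7 CPM in WT and 28.9, 51.7, 45.4, 34.0 and 31.3 CPM in FXR-/-. The FXR-/- libraries were above all WT libraries in 4 of 5, and FXR-/- 8 lay within the WT range, below WT 4. Mean levels were 24.9 ± 4.62 and 38.2 ± 9.80 CPM (SD, n = 5 each), a 1.54-fold rise by edgeR (log2 fold change 0.62, SE 0.17, adjusted p = 0.0333; exact permutation p = 0.0238). The call was fragile: it held in 4 of the 10 fits that left out 1 library, and without FXR-/- 9 and 10 the log2 fold change was 0.33 (adjusted p = 0.146).

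Mc2r, the ACTH receptor of the adrenal cortex, is a low transcript here. It had 6 to 12 counts per WT library and 13 to 47 per FXR-/- library. In CPM these were 0.361, 0.317, 0.188, 0.180 and 0.301 in WT and 0.383, 1.28, 0.633, 0.364 and 0.565 in FXR-/-. The FXR-/- libraries were all higher, but FXR-/- 11 exceeded WT 3 by only 0.364 against 0.361 CPM. The means of 0.269 ± 0.0812 and 0.645 ± 0.372 CPM (SD, n = 5 each) gave a log2 fold change of 1.25 (SE 0.38, edgeR adjusted p = 0.0476; exact permutation p = 0.00794), close to the threshold. The call held in 2 of 10 fits that left out 1 library, and without FXR-/- 9 and 10 the log2 fold change was 0.69 (adjusted p = 0.156). Mc2r and Mc5r lie 64460 bases apart on chromosome 18, with 0 other genes of the table between them.

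Mc5r, a melanocortin receptor, was close to the detection limit, with 9 counts summed over the WT libraries (95% Poisson interval 4.12 to 17.1) and 11 over the FXR-/- libraries (5.49 to 19.7), which cover counting error only. It failed the filter, all libraries held 3 counts or fewer, and no fold is given. Crhr1, the CRH receptor, measured 1.35, 0.921, 0.752, 0.808 and 0.392 CPM in WT and 0.677 to 0.771 CPM in FXR-/-. Its WT libraries spread over a wider range than the FXR-/- libraries, which lay inside it, and the means of 0.845 ± 0.347 and 0.741 ± 0.0388 CPM did not differ beyond that spread (log2 fold change -0.19, SE 0.25, edgeR adjusted p = 0.658). The difference in mean log2 CPM rested on single WT libraries: it was -0.31 without WT 9 (exact permutation p = 0.0317) and 0.10 without WT 3.

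Within WT, library 3 had the highest level of Fshr, Lhcgr, Prlr, Mc2r and Crhr1 and the lowest germ cell marker mean (6.29 log2 CPM, against 6.74 ± 0.307 over all 5 WT libraries). Its Sertoli, Leydig, adrenal cortex, macrophage and endothelial marker means were the highest of the WT libraries. Within FXR-/-, library 8 was lowest for Lhcgr, Prlr, Tshr, Ghr and Mc5r. Its Leydig marker mean was 4.83 log2 CPM, the lowest of the group. Not only Leydig markers were low there: its Sertoli, adipocyte, duct epithelium, adrenal cortex, macrophage and pituitary marker means were also the lowest. Its peritubular and smooth muscle marker mean was the highest of the group.

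The 3 receptors that rose were all highest in FXR-/- 9 and 10, the libraries where adipocyte markers were also highest. Of 14 adipocyte markers 10 rose and 0 fell by edgeR, against 6.17% higher and 7.71% lower over all tested genes. The list median log2 fold change was 2.42 against 0.01 over all tested genes. The markers that rose included adipsin (Cfd, 15.9-fold, adjusted p = 0.00817), resistin (Retn, 9.72-fold, adjusted p = 0.0148) and lipoprotein lipase (Lpl, 4.97-fold, adjusted p = 0.00105). Summed, the markers reached 108 to 279 CPM in WT and 254 to 1450 CPM in FXR-/-, and none of the 14 was at 0 in any library. The count of rising markers was not stable: it was 4 with edgeR's robust empirical Bayes option on all 10 libraries, and 2, with 1 falling, without FXR-/- 9 and 10. Without WT 4 as well it was 8, with 1 falling. With 1 library left out it was 3 to 11, and 6 or fewer without any one of WT 3, 5, 6 and 9 and FXR-/- 9, 10 and 11. The order of FXR-/- libraries by marker mean (9, 10, 11, 12, 8) was that of Tshr and of Ghr, and WT 4, the WT library with the most Tshr and Ghr, had the highest WT marker mean. Mc2r ran in another order (9, 10, 12, 8, 11), and its highest WT library was WT 3.

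Duct epithelium markers were higher too, with 11 of 14 rising and 1 falling. Their sums were 232 to 266 CPM in WT and 282 to 388 CPM in FXR-/-, with Lcn5 listed at 0 in some libraries. Beside these and the adrenal cortex counts below, 6.17% of all tested genes were called higher and 7.71% lower. With the adipocyte marker mean as a covariate none of the 3 receptors was called: the log2 fold changes were 0.59 for Tshr (adjusted p = 0.268), 0.03 for Ghr (adjusted p = 0.924) and 0.30 for Mc2r (adjusted p = 0.722), by edgeR. With the duct marker mean, whose values do not overlap between genotypes, they were 2.02, 0.10 and 1.55 and again not called. For Mc2r, which is itself one of 7 adrenal cortex markers, 2 of 5 tested markers rose, Cyp11b1 and Mc2r, and the list summed to 6.58 to 11.1 CPM in WT and 6.87 to 14.7 CPM in FXR-/-, with Cyp11b2 at 0 in some libraries. With 1 library left out 0 to 3 of these adrenal markers rose, and 0 rose in 7 of the 10 such fits (without any one of the WT libraries, FXR-/- 10 or FXR-/- 12). Cyp11b1 was called in 2 of those 10 fits. It lay inside the WT range in FXR-/- 8 and 9 and was highest in FXR-/- 11, where Mc2r was lowest of the group. The adipocyte marker mean was 2.19 ± 0.870 log2 CPM in WT and 4.21 ± 1.15 in FXR-/-. The genotypes overlapped in it only through WT 4 (3.49, against 2.91 in FXR-/- 8, the lowest). Both covariates thus largely follow genotype, so the loss of a call cannot tell marker level from genotype. The part of these cell types in the receptor differences was not tested.

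**Figure D3:**
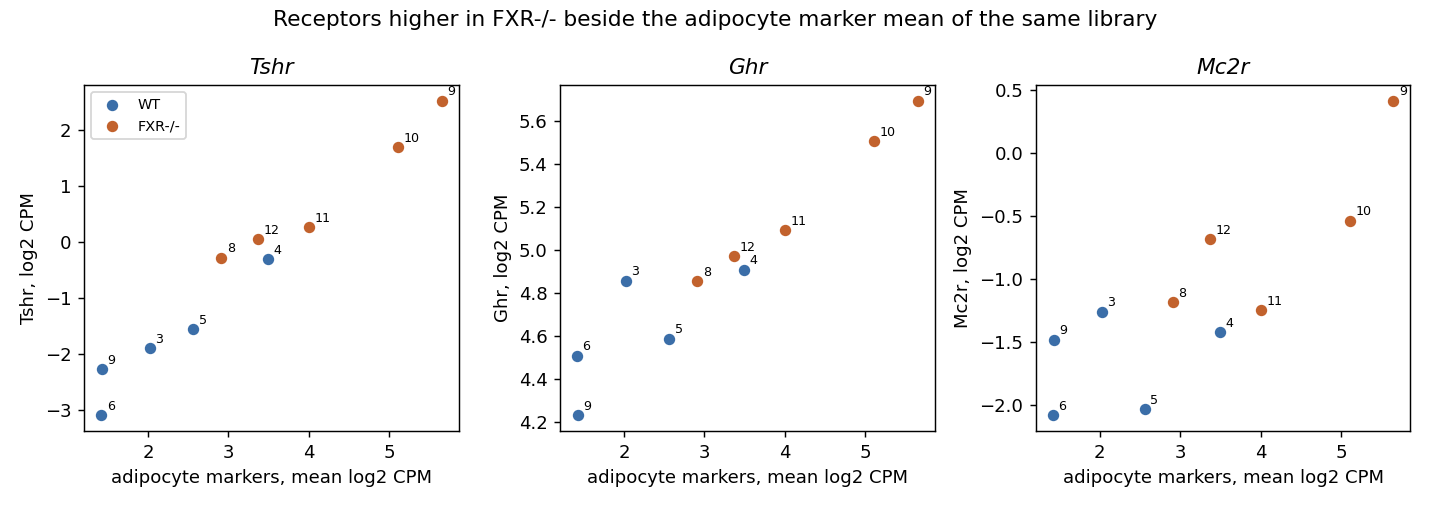
Log2 CPM of Tshr, Ghr and Mc2r (vertical) against the mean log2 CPM of 14 adipocyte markers (horizontal), 1 point per library, numbered as in the labels; WT blue, FXR-/- orange. FXR-/- 9 and 10 sit at the top right of all 3 panels, and WT 4 lies among the FXR-/- libraries on the horizontal axis.

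Set against the marker mean of the same library, Tshr was 0.65 log2 units higher in FXR-/- (exact permutation p = 0.0159, adjusted over 6 comparisons 0.0635), Ghr differed by -1.42 (exact permutation p = 0.0317, adjusted 0.0635) and Prlr differed by -2.01 (exact permutation p = 0.0238, adjusted 0.0635). None of the 6 comparisons passed 0.05 after adjustment, but the 3 with adipocyte markers lay close to it. The adipocyte marker mean itself was 2.02 log2 units higher in FXR-/- (exact permutation p = 0.0238). Prlr alone differed by 0.01 log2 units and Ghr alone by 0.60. The negative values for Ghr and Prlr therefore restate the larger rise of the markers and show no fall of either receptor. In the exact permutation test, Tshr passed (adjusted p = 0.0476) with the list median, with a prior count of 0.5 and without WT 4, FXR-/- 8 or FXR-/- 11, and Ghr and Prlr passed at the same value without WT 4 or FXR-/- 8. Tshr relative to adipocyte markers was above the WT maximum in 4 of 5 FXR-/- libraries, whereas Ghr and Prlr relative to them were below the WT minimum in 3 of 5.

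**Figure D4:**
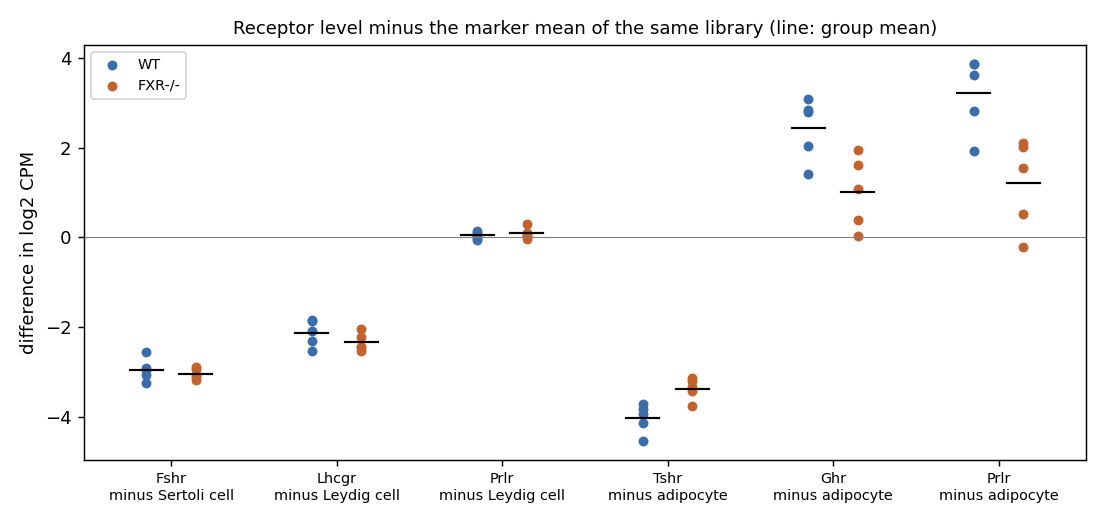
Receptor log2 CPM minus the mean log2 CPM of a marker list in the same library (vertical), for 6 pairs of receptor and list; points are libraries (WT blue, FXR-/- orange) and black lines are group means. Fshr against Sertoli markers and Lhcgr and Prlr against Leydig markers overlap between genotypes; against adipocyte markers the group mean of Tshr lies higher and those of Ghr and Prlr lower in FXR-/-, with ranges that also overlap and no comparison past 0.05 after adjustment.

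The genes of the hormones that act on these receptors, here pituitary hormones, CRH and related peptides, were low or had no row. Of 13 genes of this list 10 had a row, 4 were tested and none was called; the LH beta subunit Lhb measured 1.32 ± 0.184 and 1.42 ± 0.246 CPM and the precursor Pomc 1.24 ± 0.204 and 1.07 ± 0.129 CPM. Among related receptors 1 of 12 tested rose and 0 fell, against 6.17% and 7.71% of all tested genes. The riser was the relaxin receptor Rxfp1, at 0.583 ± 0.122 CPM in WT and 31.5 ± 5.36 CPM in FXR-/- (log2 fold change 5.75, SE 0.16, edgeR adjusted p = 1.05e-09). The median log2 fold change of that list was 0.05.

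Below the G protein-coupled receptors, 2 of 35 genes of the cAMP and PKA arm rose and 4 fell, with a list median of -0.03. The shares over all tested genes were 6.17% higher and 7.71% lower, and no set test was made of any list. The calcium-stimulated adenylate cyclase Adcy8 measured 1.64 ± 0.371 and 6.34 ± 3.57 CPM, 3.86-fold higher in FXR-/- (edgeR adjusted p = 0.00514), with every FXR-/- library above every WT library. The adenylate cyclase Adcy9 (1.34-fold), the PKA catalytic subunit Prkaca (1.16-fold) and the regulatory subunit Prkar2a (1.28-fold) fell, with edgeR adjusted p of 0.00331, 0.00733 and 0.00319. Among 14 accessory and desensitization genes 0 rose and 1 fell, the scaffold Gipc1 (1.14-fold, adjusted p = 0.0187). Without FXR-/- 8, and by DESeq2, 2 of this list were called higher and 1 lower, and without FXR-/- 12 none was called by edgeR. Mrap, the accessory protein that carries the ACTH receptor to the cell surface, was named after its values were seen: it measured 2.04 ± 0.424 CPM in WT and 3.57 ± 1.97 in FXR-/- and was not called (edgeR adjusted p = 0.126).

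In the JAK-STAT arm of the prolactin and growth hormone receptors 0 of 20 tested genes rose and 4 fell, with a median of -0.05. Among them were the kinase Jak1 (1.17-fold, adjusted p = 0.00448), the phosphatase Ptpn11 (1.12-fold, 0.0304) and the insulin receptor substrate Irs2 (1.43-fold, 0.0370), by edgeR. Of 19 FSH-responsive Sertoli genes 0 rose and 3 fell, the inhibin subunits Inha (1.34-fold, adjusted p = 0.0335) and Inhbb (1.27-fold, 0.0295) and the cyclin Ccnd2 (1.29-fold, 0.00934), with a median of -0.15. Sertoli markers, which include Inhbb, fell in the same libraries. Beside these 2 lists, 6.17% of all tested genes were called higher and 7.71% lower.

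Of 19 LH-responsive Leydig genes 0 rose and 3 fell, with a median of -0.14. They were the steroidogenic enzyme Hsd3b1 (1.36-fold, adjusted p = 0.0345), the cholesterol receptor Scarb1 (1.38-fold, 0.0190) and the nuclear receptor Nr5a1, also called SF-1 (1.28-fold, 0.0159), by edgeR. In this list 6 log2 fold changes were above 0 and 13 below. The Leydig marker mean differed by -0.03 log2 units (exact permutation p = 0.857), but its members did not move together. Of 12 Leydig markers 1 was called higher and 1, Hsd3b1, lower, with a median log2 fold change of -0.13. In that marker list 5 log2 fold changes were above 0 and 7 below. Sertoli markers fell. The cell type in which Hsd3b1, Scarb1 and Nr5a1 fell was not tested. Of 15 tested genes of the thyroid hormone axis 2 rose and 0 fell: the iodide transporter Slc5a5 (1.08 ± 0.369 and 2.20 ± 0.573 CPM, adjusted p = 0.0181) and the transcription factor Pax8 (3.61 ± 0.438 and 5.99 ± 1.18 CPM, adjusted p = 0.00832), which is also among the duct markers. Of 7 tested genes of adrenal-type steroidogenesis 1 rose, the 11β-hydroxylase Cyp11b1 (0.357 ± 0.136 and 1.56 ± 1.39 CPM, adjusted p = 0.0378), and 1 fell, the nuclear receptor Nr0b1 (1.33-fold, 0.0483). For comparison, 13.9% of all tested genes were called, 6.17% as higher and 7.71% as lower.

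**Figure D5:**
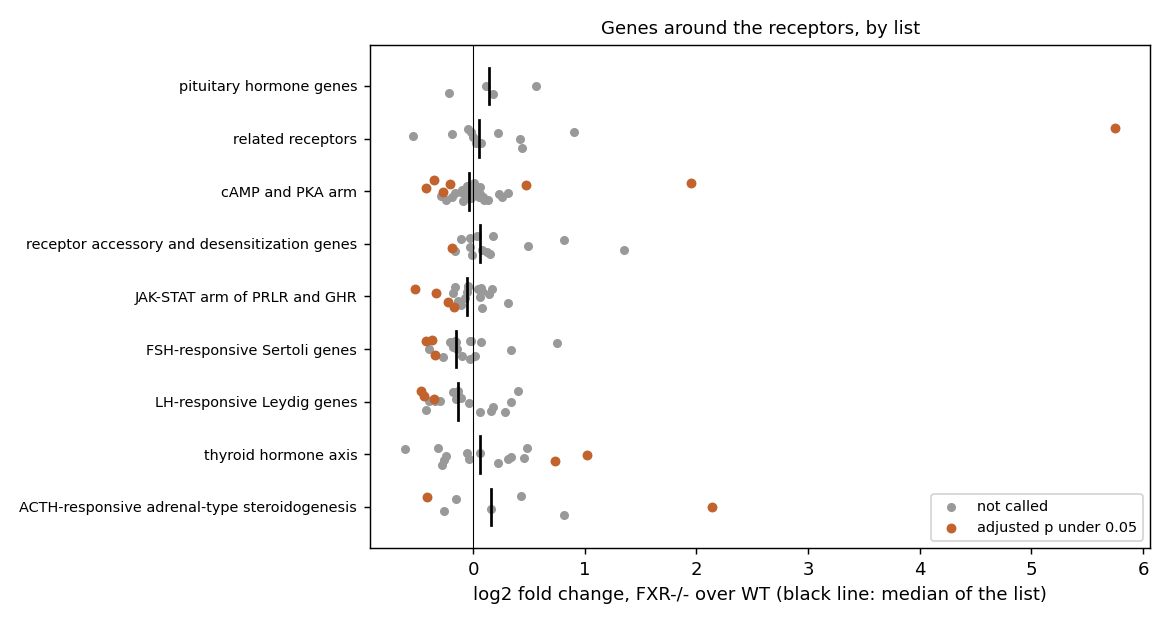
Log2 fold change, FXR-/- over WT, of each tested gene in 9 lists (points; orange, adjusted p under 0.05) with the list median (black line). All medians lie between -0.15 and 0.16, and single genes, Rxfp1 at 5.75, Cyp11b1 at 2.14 and Adcy8 at 1.95, stand far to the right.

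The genes whose levels varied most like each receptor across the 10 libraries, after each genotype's mean was subtracted, were found among 14016 genes and are given as a description. Libraries share depth and tissue composition, and the r below are Pearson values over 10 libraries. For Tshr these were Retn (r = 0.980), Slc36a2 (0.978) and Cidec (0.966), of which Retn and Cidec are on the adipocyte list. For Ghr they were Lurap1l (0.979), Cav1 (0.969) and Ppp2r5a (0.965). For Prlr they were AW549877 (0.986), Cyp4f13 (0.971) and Dhrs11 (0.966), and for Lhcgr Clcn3 (0.961), Khk (0.950) and Alcam (0.949). For Fshr they were Ccdc114 (0.977), Magi2 (0.967) and Kcnt1 (0.962). Without the 2 libraries farthest from the receptor's median, the r for the same genes in the same order were 0.959, 0.939 and 0.916 for Tshr and 0.977, 0.964 and 0.968 for Ghr. They were 0.950, 0.889 and 0.894 for Prlr, 0.881, 0.902 and 0.852 for Fshr, and 0.824, 0.788 and 0.878 for Lhcgr. Because the genes were picked by r over all 10 libraries, high r in a part of them give no separate support. Tshr reached the mean of 1 CPM needed here only through FXR-/- (0.290 CPM in WT, 2.35 in FXR-/-). With 2 to 26 counts per WT library, its WT values in these r are near the floor and depend on the prior count.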

How the data were processed

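Whole testes of 5 WT and 5 FXR-/- mice were profiled by RNA sequencing. Per the labels' protocols, RNA from frozen testes was extracted with Trizol and made into libraries with an Illumina TruSeq RNA kit. The submitters' processing notes name FastQC 0.10.1, CASAVA, Bowtie, TopHat2 2.0.10, Bowtie2 2.1.0 and mm10. Not given in the sources used here are the read counter, the annotation and strand use. The authors deposited raw counts per gene, and these were analysed unchanged; the table's other columns were not used here. Overlapping genes cannot be told apart without strand.

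Low genes were removed by filterByExpr. On TMM-scaled libraries, edgeR 4.0.16 in R 4.3.3 gave two-sided quasi-likelihood p-values, adjusted by Benjamini-Hochberg over 18559 genes and called under 0.05; DESeq2 1.42.0 was an alternative. Log2 CPM used a prior count of 2. Exact permutation tests ran over every assignment of 10 libraries to 2 groups of 5 (scipy 1.17.1), so p-values measure the spread between mice. Of the genes, 30212 matched GENCODE M21 on GRCm38, the build of mm10, for positions and lengths. Upstream sequences are from RefSeq. Both test steps were tested on simulated data.

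Named genes were all receptors; for each list, up to 4 called members ranked by p (without calls, the 2 with most CPM), or any member where 8 or fewer were tested; and 3 genes most like each receptor of at least 1 CPM. A gene picked by this rule is not reported here. The receptors and all 19 lists were chosen with earlier results of these data known. Alternatives were another scaling, filter, prior count or tool, a marker covariate, and libraries left out.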

Additional observations from a re-analysis of the deposited data

Results flagged for a closer look

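In groups of 5 libraries, the gap between the most extreme library and its neighbour was compared with Dixon's critical value of 0.71 of the group's range, for 48 groups. Chance flags about 1 in 20 such groups, and 4 were past it. FXR-/- 8 was far below the other FXR-/- libraries in Lhcgr (2.30 log2 CPM) and in Prlr (4.94 log2 CPM), and far above them in the mean of peritubular and smooth muscle markers (6.63 log2 CPM). WT 3 was far below the other WT libraries in Mc5r (-3.53 log2 CPM), where it held 1 count.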

How the results depend on the processing

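Of all tested genes 2576 were called changed. With the adipocyte marker mean as covariate 1322 were called, with the duct marker mean 51, and without FXR-/- 9, FXR-/- 10 and WT 4 together 1547; leaving out 1 library gave 1427 to 2867. DESeq2 called 3502. The share of calls that were higher was 44.5%, 53.0% with upper-quartile factors and 61.5% with library totals alone.

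For Fshr the log2 fold change was -0.378 with DESeq2, and -0.437 to -0.226 with 1 library left out; edgeR called it only without WT 9. For Lhcgr leaving out 1 library gave -0.315 to -0.0942, with no call. For Tshr it was 0.594 with the adipocyte covariate, 2.02 with the duct covariate and 1.70 without FXR-/- 9 and 10. Without WT 4 as well it was 2.44 and was called (edgeR adjusted p = 0.00689). For Ghr the same settings gave 0.0265, 0.0980 and 0.333, and without WT 4 as well 0.412; leaving out 1 library gave 0.488 to 0.705. For Mc2r they gave 0.299, 1.55, 0.691 and 0.759, no filter gave 1.25 (adjusted p = 0.0502), and leaving out 1 library gave 0.848 to 1.40. At a filter of 1 CPM in 5 libraries, Tshr, Mc2r and Crhr1 were not tested. The cause of these losses was not tested.

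The difference in mean log2 CPM with 1 library left out was -0.408 to -0.217 for Fshr, 0.486 to 0.696 for Ghr and -0.314 to 0.0998 for Crhr1. Fshr relative to Sertoli markers was -0.236 with the list median and -0.165 to 0.00693 with 1 library left out, with no call. Tshr relative to adipocyte markers was 1.03 with the list median and 0.862 with a prior count of 0.5, both past the threshold (adjusted p = 0.0476), and 0.528 to 0.749 with 1 library left out. For Ghr and Prlr relative to them, leaving out 1 library gave -1.67 to -1.18 and -2.33 to -1.66.

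Among listed genes, the sign turned for Cd36 with the adipocyte covariate (log2 fold change -0.0626) and, with the duct covariate, for Pax8 (-0.00901), Ctss (-0.00876) and Cyp11b1 (-0.516). With 1 library left out, called members numbered 4 to 6 in the cAMP and PKA list, 2 to 4 in the JAK-STAT list (2 without WT 3, WT 4, FXR-/- 11 or 12), 1 to 3 in the FSH list (1 without WT 4, FXR-/- 8, 11 or 12), 1 to 5 in the LH list (1 without FXR-/- 11, 5 without FXR-/- 10), 2 to 3 in the thyroid list, 1 to 2 among related receptors, 0 to 3 in the accessory list and 0 to 2 in the adrenal-type list (1 without WT 6; 2 without FXR-/- 8 or 9; 0 otherwise). For markers these were 7 to 12 for Sertoli cells, 0 to 3 for adrenal cortex and 3 to 12 for adipocytes. Low counts limit Mc2r, Mc5r, Crhr1 (13 to 45 counts per WT library and 26 to 30 per FXR-/- library) and, in WT, Tshr. No paired analysis was possible because the genotypes share only the number 9.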

Other observations

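Tshb, the beta subunit of thyrotropin, failed the filter on low counts and was named after its values were seen. It had 6, 12, 9, 21 and 12 counts in WT libraries 3, 4, 5, 6 and 9 and 1, 4, 6, 4 and 6 counts in FXR-/- libraries 8 to 12. In CPM this was 0.360 ± 0.166 in WT and 0.110 ± 0.0506 in FXR-/- (SD, n = 5 each), and no test was made. Cga, the alpha subunit that thyrotropin shares with LH and FSH, had 2 counts over all 10 libraries.

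Mrap2, the second melanocortin receptor accessory protein, was also named after its values were seen. It measured 0.470 to 0.718 CPM in the WT libraries, 0.471 and 0.532 CPM in FXR-/- 8 and 10, and 1.75 to 2.58 CPM in FXR-/- 9, 11 and 12. It was not called by edgeR (log2 fold change 1.35, SE 0.44, adjusted p = 0.0628). The libraries that were high in Mrap2 were not the same as those highest in Mc2r, which were FXR-/- 9 and 10.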
